A study of Mus musculus with 4 samples.

Results

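The genes described here are those that build, move and anchor the actin cytoskeleton, 46 in all, chosen by symbol and function and grouped by role. They were chosen with earlier results of these data known. Each was read from the probe set (a set of array probes summarised to 1 value) with the highest mean among those whose annotation gives exactly 1 gene symbol. Of the 46, 42 were tested among 12114 genes, 1 (Myl6) was too dim to be tested, and 3 (Arpc1b, Arpc3 and Actr2) had no probe set with a single symbol and are not analysed here. RNA had been taken from regulatory T cells (Treg) of mice given an antibody against death receptor 3 (anti-DR3, used as an agonist, 2 arrays) or a control antibody (2 arrays). DR3 is a costimulatory receptor of the tumour necrosis factor receptor superfamily. All mice were of the strain labelled Foxp3Luci-DTR-4(B6 Albino), and CD4+ Foxp3+ cells positive for green fluorescent protein were sorted 4 days after the antibody had been injected into the peritoneum. Nothing in the labels says whether the 2 arrays of a group came from separate mice or pools, so the spread behind the p-values is that of these arrays and may be technical.

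Actin filaments assemble from monomers, are nucleated in branches by the Arp2/3 complex and in straight cables by formins, and are cut back by cofilin. Crosslinkers and myosin II turn the filaments into a contractile cortex, and talin, vinculin and the ERM proteins (ezrin, radixin and moesin) tie that cortex to integrins and to the membrane. Lymphocytes depend on this system to crawl, to squeeze through tissue and to form a synapse with the cells they touch, while vimentin and the lamins set the stiffness of the cell body and the nucleus.

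All 4 arrays carried the markers of the sorted cell. Foxp3 stood at log2 intensities of 11.93 and 11.90 with anti-DR3, against 11.89 and 11.81 with control antibody, and Cd3e, a chain of the T cell receptor complex, lay between 12.35 and 12.40 on all arrays. Of the 7 regulatory T cell and T cell markers all were tested, Ikzf2 rose by 0.58 and Il2ra fell by 0.49 (limma, adjusted p = 0.0193 and 0.0441). Cd4 and Cd3g differed by 0.30 and 0.27 and did not pass (limma, adjusted p = 0.0776 and 0.0944). In limma 4 of the 7 lay under an unadjusted p of 0.05, 3 higher and 1 lower, against 26.1% of all genes. The anti-DR3 arrays lay above the control arrays for 5 and below for 1, against 31.6% and 24.6% of all genes. Arrays correlated at 0.989 and 0.992 within groups and at 0.975 to 0.980 between groups over the genes tested. Each difference is the mean log2 intensity with anti-DR3 less that with control antibody, given with limma's standard error (SE) and p-values adjusted by Benjamini-Hochberg over all genes tested. In bulk samples, fewer cells of a type and less RNA per cell cannot be told apart.

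The genes below are shown with the 250 bases before their RefSeq start (GRCm38.p6, 5′ to 3′ on the gene's strand). The first 3 are the tested members with a CArG box, the element bound by serum response factor (SRF), the transcription factor best known for driving actin genes, and in these the box is in capitals. Vim is shown for a match to an NF-kappaB pattern, GGG and TTTCC with any 2 bases between them, which lies on the opposite strand and is also in capitals. Crip1 and Actn1 are shown as the members with the largest rise and the largest fall, the only fall called, and hold neither pattern.
Actg1, chr11:120348496-120348745, minus strand: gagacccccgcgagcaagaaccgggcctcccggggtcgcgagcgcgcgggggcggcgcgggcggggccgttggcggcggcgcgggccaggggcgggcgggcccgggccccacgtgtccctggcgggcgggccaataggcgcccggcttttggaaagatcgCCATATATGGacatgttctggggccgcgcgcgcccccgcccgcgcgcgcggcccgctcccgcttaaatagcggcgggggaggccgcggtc
Arpc4, chr6:113377863-113378112, plus strand: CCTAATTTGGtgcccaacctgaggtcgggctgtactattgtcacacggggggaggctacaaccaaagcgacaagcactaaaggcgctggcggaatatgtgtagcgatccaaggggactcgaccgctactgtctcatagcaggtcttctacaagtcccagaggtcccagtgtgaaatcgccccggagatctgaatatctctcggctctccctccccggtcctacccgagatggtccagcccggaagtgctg
Vcl, chr14:20929148-20929397, plus strand: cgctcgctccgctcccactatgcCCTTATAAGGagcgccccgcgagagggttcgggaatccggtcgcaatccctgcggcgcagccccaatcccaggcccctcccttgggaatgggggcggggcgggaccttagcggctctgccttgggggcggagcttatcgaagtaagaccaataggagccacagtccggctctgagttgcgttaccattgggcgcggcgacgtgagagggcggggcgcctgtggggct
Vim, chr2:13574061-13574310, plus strand: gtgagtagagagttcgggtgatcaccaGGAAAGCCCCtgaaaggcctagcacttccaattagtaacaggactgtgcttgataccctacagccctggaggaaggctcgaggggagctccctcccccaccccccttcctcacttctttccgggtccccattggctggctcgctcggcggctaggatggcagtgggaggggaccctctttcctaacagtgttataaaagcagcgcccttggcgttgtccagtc
Crip1, chr12:113151762-113152011, plus strand: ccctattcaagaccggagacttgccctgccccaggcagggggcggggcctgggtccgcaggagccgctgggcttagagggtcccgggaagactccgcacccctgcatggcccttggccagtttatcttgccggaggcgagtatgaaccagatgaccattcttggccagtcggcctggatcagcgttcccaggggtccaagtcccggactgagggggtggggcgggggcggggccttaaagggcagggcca
Actn1, chr12:80260364-80260613, minus strand: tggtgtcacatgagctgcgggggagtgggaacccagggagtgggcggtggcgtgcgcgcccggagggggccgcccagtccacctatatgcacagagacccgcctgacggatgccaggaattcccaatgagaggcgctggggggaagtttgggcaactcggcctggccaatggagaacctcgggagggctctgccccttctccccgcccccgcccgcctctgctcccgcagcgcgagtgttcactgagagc

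Windows were used for 38 of the 46 members, 49 windows in all, and none was used for Actb, Coro1b, Cotl1, Diaph1, Lmnb1, Lsp1, Rac1 and Rac2. The member set left out windows of a chromosome that the set of all windows kept, so the shares below come from unlike sets. A CArG box, searched on both strands, stood in the windows of 4 members, namely Actg1, Arpc4, Vcl and the dim Myl6, or in 8.16% of member windows against 1.47% of all 32851 windows. The NF-kappaB pattern matched in Vim and in Rdx, the radixin gene, 4.08% of member windows against 1.41% of all. GGGCGG, the GC box, and TATAAA were searched for scale, and TATAAA stood in 6.12% of member windows and 12.4% of all. GGGCGG stood in 65.3% of member windows and 32.7% of all. A wider list of related actin genes, given below, had 189 windows, with no chromosome left out. Of these, 59.8% held GGGCGG and 4.76% TATAAA, shares near those of the members. The CArG box stood in 3.17% of them and the NF-kappaB pattern in 1.06%. The 4 patterns were searched separately, so that matches may overlap, and a match describes letters only. The box lay 90 to 81 bases before the start in Actg1, 250 to 241 in Arpc4, 227 to 218 in Vcl and 50 to 41 in Myl6.

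After anti-DR3, 6 of the 42 members rose and 1 fell. Crip1, Lmnb1, Actg1, Arpc5, Vim and Coro1b were higher by 1.36-fold to 1.88-fold, and Actn1, the gene of alpha-actinin 1, fell by 0.90 on the log2 scale, to 0.536 of its control level. Over all genes tested 4.49% were called higher and 1.47% lower, against 14.3% and 2.38% of the members, and 5.96% of all genes were called in either direction. Because the members were chosen with earlier results of these data known, such shares describe the members and test nothing. With 5.96% of all genes called, 0 or 1 call in a role of a few genes says little about that role. An unadjusted p under 0.05 was reached by 24 members, or 57.1%, against 26.1% of all genes. The remaining 35 members did not pass, and 8 of them had adjusted p-values between 0.05 and 0.10, with 7 differences above 0 and 1 below. No member differed 2-fold or more.

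Most members sat a little higher after anti-DR3, whether or not they passed. Of the 42 differences 36 were above 0, or 85.7%, against 52.4% of all genes tested, and the median was 0.20 against 0.01. The members were brighter as a set, with array medians of 9.39 to 9.76 on the log2 scale against 6.73 to 6.81. Shares among genes of matched brightness were not compared. Both anti-DR3 arrays lay above both control arrays for 28 of the 42 members, against 31.6% of all genes tested, and below them for 2, Actn1 and Rhob, against 24.6%. Centring each array on the median of the genes tested took the median difference of all genes from 0.01 to -0.05. The members then had a median of 0.14, with 31 of 42 above 0, against 39.9% of all genes, and 4 called higher (Crip1, Lmnb1, Actg1 and Vim) and 2 lower (Actn1 and Rhob). Among all genes the higher share of the calls went from 75.3% to 58.9% with this centring.

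**Figure D1:**
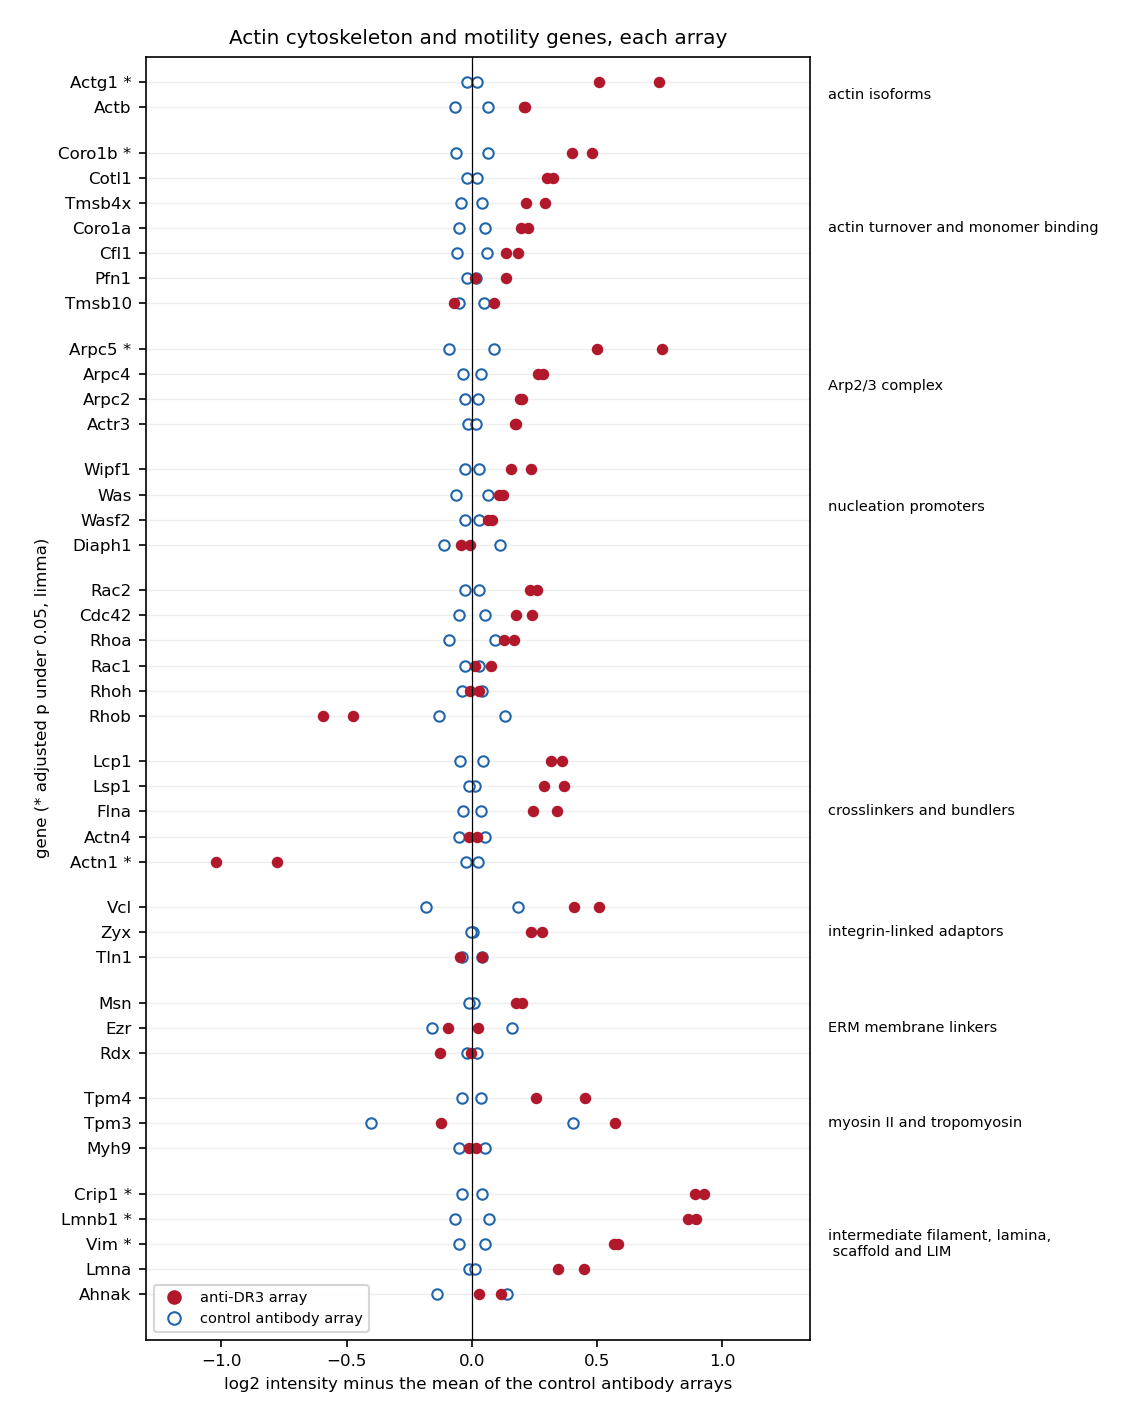
Each row is a gene and each point an array, as the log2 intensity minus the mean of the control antibody arrays (filled red, anti-DR3; open blue, control antibody; 2 arrays per group; * adjusted p under 0.05, limma). Most red points lie to the right of the blue ones by less than 0.5, Crip1 and Lmnb1 lie near 0.9, Actn1 and Rhob lie to the left, and Tpm3 spreads more widely within each group than any other gene drawn.

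**Figure D2:**
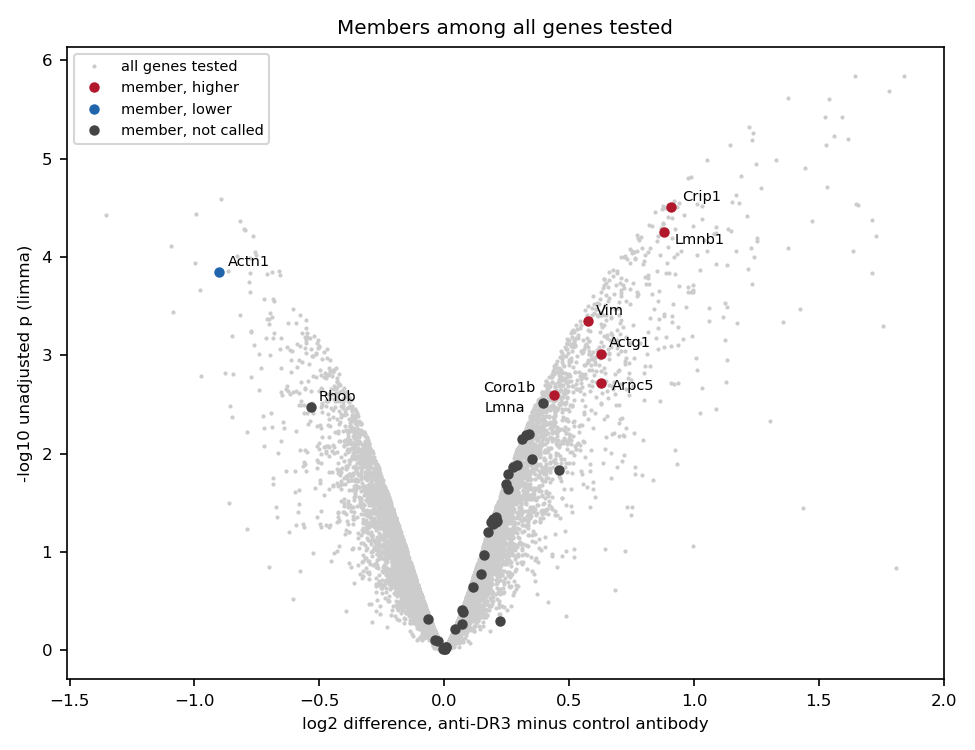
The log2 difference of each gene tested (x axis, anti-DR3 minus control antibody) against -log10 of its unadjusted limma p (y axis), with the 42 members as large points, red for higher, blue for lower and dark grey for those not called. Most members lie along the right flank between 0 and 0.5, with Actn1 and Rhob apart on the left.

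The calls depended on having all 4 arrays. Limma called 0 members once anti-DR3 replicate 1 was removed, and 0 once anti-DR3 replicate 2 was. It called 1 (Crip1) when control antibody replicate 1 was removed and 2 (Crip1 and Lmnb1) when control antibody replicate 2 was, and these fits had 13, 14, 19 and 17 members under an unadjusted p of 0.05, against 24 with all arrays. The 7 called members kept their direction in these fits. Crip1 ranged from 0.87 to 0.95 with an array left out, Lmnb1 from 0.81 to 0.95, Vim from 0.52 to 0.63, Actg1 from 0.51 to 0.75, Arpc5 from 0.50 to 0.76, Coro1b from 0.38 to 0.50 and Actn1 from -1.02 to -0.78.

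**Figure D3:**
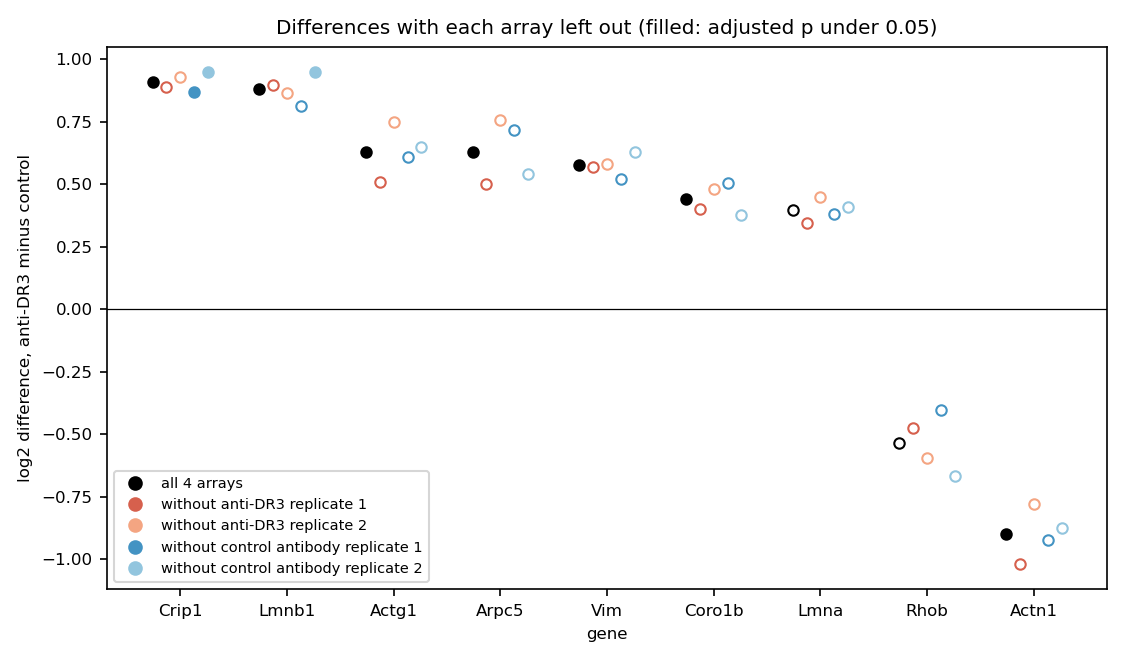
The log2 difference (anti-DR3 minus control antibody) of the 7 called members and of Lmna and Rhob, with all 4 arrays (black) and after removal of any single array (colours; filled points have an adjusted p under 0.05 in limma). All points of a gene stay on 1 side of 0, while only Crip1 and Lmnb1 keep filled points once an array is removed.

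The actin isoforms of non-muscle cells are Actb (beta-actin) and Actg1 (gamma-actin), which differ in a handful of residues. Actg1 stood at log2 intensities of 11.00 and 10.76 with anti-DR3, against 10.23 and 10.27 with control antibody. It rose by 0.63 ± 0.10 (SE, n = 2 arrays per group), or 1.55-fold (adjusted p = 0.0298, limma), and the groups lay well apart. The annotation gives 6 probe sets to Actg1, of which 5 had differences between 0.47 and 0.69 and the dimmest 0.03. Of those 5, 2 hold identical values on every array and count as 1 reading. A probe set annotated to both Actg1 and Gm12739, not used here, had 5.63 and 5.85 against 5.93 and 6.07. Actb stood at 10.44 and 10.44 against 10.30 and 10.16. Its difference of 0.21 ± 0.085 did not pass (adjusted p = 0.189, limma), although the groups did not overlap. Probes of such close copies can bind both RNAs, so the values of these genes may be shared in part.

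Among 7 genes of filament turnover and monomer binding, 1 rose, and the 7 differences ran from 0.01 to 0.44. Coro1b, a coronin that acts with cofilin and the Arp2/3 complex at branches, stood at log2 intensities of 9.54 and 9.45 with anti-DR3, against 9.12 and 8.99 with control antibody. It rose by 0.44 ± 0.088, or 1.36-fold (adjusted p = 0.0458, limma), with the groups apart. It was not called with centred arrays (adjusted p = 0.0629, limma), with quantile normalization repeated (0.0661) or with the replicate number as a block (0.0561). Coro1a, the coronin most typical of leukocytes, had 9.80 and 9.83 against 9.66 and 9.56, a difference of 0.21 (adjusted p = 0.179, limma). Cotl1, which binds F-actin, gave 9.57 and 9.55 against 9.27 and 9.23, a difference of 0.31 (adjusted p = 0.0735, limma). Neither passed, and in both the anti-DR3 arrays lay above the control arrays, as they did in 31.6% of all genes tested.

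The thymosins hold actin monomers in reserve, and neither gene passed. Tmsb4x stood at log2 intensities of 10.31 and 10.24 with anti-DR3, against 10.06 and 9.98 with control antibody, a difference of 0.25 (adjusted p = 0.128, limma). Tmsb10 had 6.95 and 6.79 against 6.91 and 6.81, with overlapping groups and a difference of 0.01 that turned to -0.05 with centred arrays. Cfl1 (cofilin, which severs filaments) and Pfn1 (profilin, which feeds monomers to growing ends) differed by 0.16 and 0.07, and Pfn1 overlapped between groups.

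Of the 7 genes of the Arp2/3 complex, which nucleates branched networks at the leading edge, 4 were tested and 1 rose. Arpc5, the smallest subunit, stood at log2 intensities of 10.21 and 9.95 with anti-DR3, against 9.54 and 9.36 with control antibody. Its difference was 0.63 ± 0.12, or 1.55-fold (adjusted p = 0.0417, limma), and a dimmer probe set of the same gene gave 0.06. With the mean of both probe sets the difference was 0.35 and was not called, nor was it called with centred arrays (adjusted p = 0.0531, limma) or with quantile normalization repeated (0.0570). The other tested subunits had smaller differences and did not pass. Arpc4 had 9.61 and 9.59 against 9.36 and 9.29, a difference of 0.27 (adjusted p = 0.0990, limma). Actr3 had 11.51 and 11.51 against 11.32 and 11.35, a difference of 0.18, Arpc2 differed by 0.20, and in all 4 tested subunits the anti-DR3 arrays lay above the control arrays, as they did in 31.6% of all genes tested.

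Nucleation promoters, the proteins that switch on that complex or extend straight filaments, gave 0 calls among 4. Wipf1, the partner that stabilises the Wiskott-Aldrich protein, had the largest difference, at log2 intensities of 8.74 and 8.66 with anti-DR3, against 8.53 and 8.48 with control antibody (0.20 ± 0.081, adjusted p = 0.196, limma). Was itself differed by 0.11, Wasf2, a subunit of the WAVE complex, by 0.07, and Diaph1, a formin, had 8.44 and 8.48 against 8.38 and 8.60, overlapping, with a difference of -0.03. No nucleation promoter lay under an unadjusted p of 0.05.

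Rhob, an inducible GTPase of endosomes that is made and lost quickly, stood at log2 intensities of 6.36 and 6.48 with anti-DR3, against 7.08 and 6.82 with control antibody. Its difference was -0.54 ± 0.11 (adjusted p = 0.0527, limma), the groups did not overlap, and it passed when arrays were centred. Rhoa, the main driver of contraction, had 10.83 and 10.78 against 10.75 and 10.56, a difference of 0.15 that did not pass and was 0.0559 without control antibody replicate 2. Rhoh, a GTPase-deficient protein needed for T cell receptor signalling, had 9.02 and 9.06 against 9.07 and 8.99, overlapping and within 0.01 of 0.

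Neither Rac gene passed, nor did Cdc42. Rac2, the form restricted to blood cells, stood at log2 intensities of 12.39 and 12.42 with anti-DR3, against 12.19 and 12.13 with control antibody, a difference of 0.25 (adjusted p = 0.121, limma). Rac1, which is made in all tissues, had 10.23 and 10.29 against 10.24 and 10.19, with overlap and a difference of 0.04 that became -0.02 with centred arrays. Cdc42, the GTPase of polarity and filopodia, differed by 0.21.

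Crosslinkers and bundlers held the only called fall. Actn1, which bundles antiparallel filaments and ties them to integrin sites, stood at log2 intensities of 8.97 and 8.73 with anti-DR3, against 9.73 and 9.78 with control antibody. It fell by 0.90 ± 0.10 (adjusted p = 0.0134, limma), and the groups stood far apart. Actn4, its closest relative, had 8.83 and 8.80 against 8.87 and 8.76, with a difference of 0.0043 ± 0.082 and overlapping groups, and the difference turned to -0.06 with centred arrays. The 95% interval of that difference was -0.20 to 0.21, which does not reach the fall seen in Actn1.

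Lcp1, Lsp1 and Flna had differences above 0 and did not pass. Lcp1, the leukocyte plastin, stood at log2 intensities of 11.28 and 11.32 with anti-DR3, against 10.92 and 11.01 with control antibody, a difference of 0.34 (adjusted p = 0.0692, limma). Lsp1, an F-actin binding protein of leukocytes, gave 0.33 (adjusted p = 0.0698, limma) and Flna, the filamin that joins filaments into gels, 0.29 (adjusted p = 0.0966, limma). In these 3 genes the anti-DR3 arrays lay above the control arrays, as they did in 31.6% of all genes tested.

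Adaptors between actin and integrins gave 0 calls among 3, 2 of them under an unadjusted p of 0.05. Vcl (vinculin), which reinforces adhesion sites under tension, stood at log2 intensities of 7.19 and 7.09 with anti-DR3, against 6.49 and 6.86 with control antibody, a difference of 0.46 ± 0.13 (adjusted p = 0.102, limma) whose control arrays were far from each other. Without control antibody replicate 1 it was 0.274. Zyx (zyxin), a LIM protein of stressed filaments, differed by 0.26 (adjusted p = 0.107, limma). Tln1 (talin), which activates integrins, had 9.42 and 9.33 against 9.34 and 9.42, and the groups overlapped.

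ERM genes gave 0 calls among 3, with Msn alone under an unadjusted p of 0.05. Msn (moesin), the main ERM protein of lymphocytes, stood at log2 intensities of 11.23 and 11.21 with anti-DR3, against 11.04 and 11.02 with control antibody, a difference of 0.19 (adjusted p = 0.191, limma). Ezr (ezrin) had 9.89 and 10.01 against 10.14 and 9.82, and Rdx (radixin) 8.76 and 8.88 against 8.86 and 8.90. Both overlapped between groups, with differences of -0.04 and -0.06.

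Myosin II and tropomyosin genes gave 0 calls among 3 tested, with 1 under an unadjusted p of 0.05. Tpm4, a tropomyosin of short cytoplasmic filaments, stood at log2 intensities of 9.56 and 9.76 with anti-DR3, against 9.27 and 9.34 with control antibody, a difference of 0.35 (adjusted p = 0.0894, limma), with 0.05 at a dimmer probe set. Tpm3 had 9.71 and 10.40 against 9.43 and 10.23, so that in each group replicate 1 was low and replicate 2 high. Its difference of 0.22 ± 0.32 had the widest error of all members, and a dimmer probe set gave -0.11. Myh9, the heavy chain of non-muscle myosin IIA, had 10.40 and 10.43 against 10.36 and 10.46 and overlapped between groups. Myl6, a light chain of the same myosin, had 4.61 and 5.50 against 4.42 and 4.63 and was not tested.

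The intermediate filament, lamina, scaffold and LIM genes had the most calls of any role, 3 of 5, all higher. Of all genes tested 4.49% were called higher. Crip1, a small LIM-domain protein, stood at log2 intensities of 9.80 and 9.76 with anti-DR3, against 8.83 and 8.91 with control antibody. It rose by 0.91 ± 0.081, or 1.88-fold (adjusted p = 0.00988, limma), with tight replicates and groups far apart. Vim (vimentin), the intermediate filament of migrating leukocytes, had 11.81 and 11.80 against 11.18 and 11.29. It rose by 0.58 ± 0.082, or 1.49-fold (adjusted p = 0.0223, limma), and its dimmer probe set gave 0.84.

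Of the lamin genes, Lmnb1 rose and Lmna did not pass. Lmnb1 (lamin B1), a farnesylated protein of the nuclear lamina, stood at log2 intensities of 8.26 and 8.30 with anti-DR3, against 7.33 and 7.47 with control antibody, and rose by 0.88 ± 0.086, or 1.84-fold (adjusted p = 0.0105, limma). Lmna (lamins A and C), which stiffens the nucleus, had 6.21 and 6.10 against 5.75 and 5.77, a difference of 0.40 ± 0.082 (adjusted p = 0.0510, limma), just outside the threshold. It was called with quantile normalization repeated (adjusted p = 0.0482, limma) and with the stricter filter on dim genes (0.0382). It was not called with centred arrays (adjusted p = 0.0777, limma), with the replicate number as a block (0.0742) or without the filter on dim genes (0.169). Ahnak, a giant scaffold under the plasma membrane, had 8.51 and 8.43 against 8.26 and 8.54 and overlapped. Cell cycle genes moved with these values. Of 8 listed cell cycle markers 5 were tested and 4 rose (Mki67, Top2a, Ccnb2 and Ccna2), of which Ccna2 passed the filter through the anti-DR3 arrays alone. The intensities of the 7 measured summed to 1447 and 1446 after anti-DR3 and to 470.4 and 511.6 after control antibody. Their part in the rises of Lmnb1 and the other members was not tested.

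Related members were compared in 10 pairs as log2 ratios within each array. For Actn1 against Actn4 the ratio was lower by 0.90 ± 0.13 (SE, n = 2 arrays per group) after anti-DR3, and for Rhob against Rhoa by 0.68 ± 0.089. The Lmna to Lmnb1 ratio was lower by 0.48 ± 0.088. Lmna was dim, at 5.75 and 5.77 with control antibody, where the medians of all probe sets were 5.38 and 5.39. The part of its dimness in that ratio was not tested. The ratio of Tmsb10 to Tmsb4x was lower by 0.25 ± 0.041, that of Rac1 to Rac2 by 0.20 ± 0.019 and that of Rdx to Msn by 0.25 ± 0.078. Higher after anti-DR3 were Actg1 against Actb, by 0.42 ± 0.15, or by 0.249 with the mean of all probe sets, and Coro1b against Coro1a, by 0.23 ± 0.056. Ezr against Msn was lower by 0.22 ± 0.17, and by 0.0747 without control antibody replicate 1, with its nearest arrays of the 2 groups at -0.152 and -0.149. Tpm4 against Tpm3 was the only pair whose groups overlapped. The other 9 pairs each had an exact two-sided permutation p of 0.333, the smallest that 2 arrays against 2 can give, and 0.370 adjusted over the 10, so these ratios are described only.

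**Figure D4:**
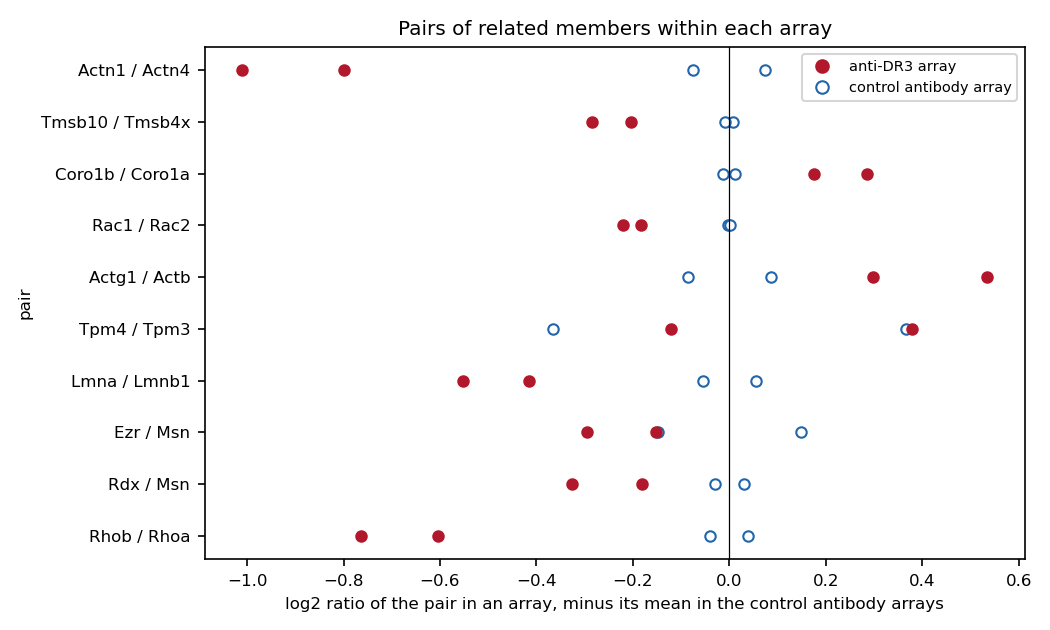
Points give the log2 ratio of a pair of related members in each array, minus the mean of that ratio in the control antibody arrays (filled red, anti-DR3; open blue, control antibody). Red points of Actn1 / Actn4 and Rhob / Rhoa lie farthest to the left, 1 red point of Actg1 / Actb lies farthest to the right at 0.54, and Tpm4 / Tpm3 overlaps.

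A wider list of 148 related genes, also picked by function and with earlier results known, had 125 tested. Of these 8 rose and 0 fell in limma, or 6.40% higher against 4.49% of all genes tested. Under an unadjusted p of 0.05, 46 were higher, against 16.6% of all genes, and 4 lower. Among the higher, Pls1 passed the filter through the anti-DR3 arrays alone. Among the lower, Cdc42ep4 passed it through the control arrays alone. The median difference was 0.14, and the anti-DR3 arrays lay above the control arrays for 57.6%, against 31.6% of all genes. Without anti-DR3 replicate 1 or 2 limma called 0 of them. Without control antibody replicate 1 it called 3 higher, and without control antibody replicate 2 it called 6 higher and 1 lower.

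Scin (scinderin), which severs and caps filaments in a calcium-dependent way, stood at log2 intensities of 7.14 and 7.12 with anti-DR3, against 5.70 and 6.05 with control antibody. It rose by 1.25 ± 0.13, or 2.38-fold (adjusted p = 0.0107, limma). Of 4 class I myosins tested, short motors that link membrane to actin, Myo1f rose by 0.98, Myo1e by 0.84 and Myo1g by 0.62, and Myo1c had a difference of 0.17 that did not pass (adjusted p = 0.366, limma). Tagln2 (transgelin 2), a stabiliser of filaments in T cells, rose by 0.61 (adjusted p = 0.0291, limma). The formin Diaph3 and the cytokinesis pair Racgap1 and Ect2 rose by 0.94, 0.96 and 0.90. The part of the cell cycle markers given above in these rises was not tested.

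By role, capping, severing and monomer-binding genes had 12 of 19 under an unadjusted p of 0.05 (12 higher, 0 lower), with a median of 0.27, against 26.1% of all genes in either direction. Formins and Ena/VASP genes had 5 of 7 (4 higher, 1 lower). Effector kinases and phosphatases (13 genes) and integrin-linked adaptors (14 genes) had 0 calls in limma, against 5.96% of all genes. Under an unadjusted p of 0.05 the former had 7 (5 higher, 2 lower) and the latter 3 (3 higher), or 21.4%. Cdc42ep4, lower by 0.38 among the kinases and their partners, passed the filter through the control arrays alone. Srf and its actin-sensing coactivators Mrtfa and Mrtfb differed by 0.13, -0.03 and -0.01 and did not pass, with 0 of 3 under an unadjusted p of 0.05.

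**Figure D5:**
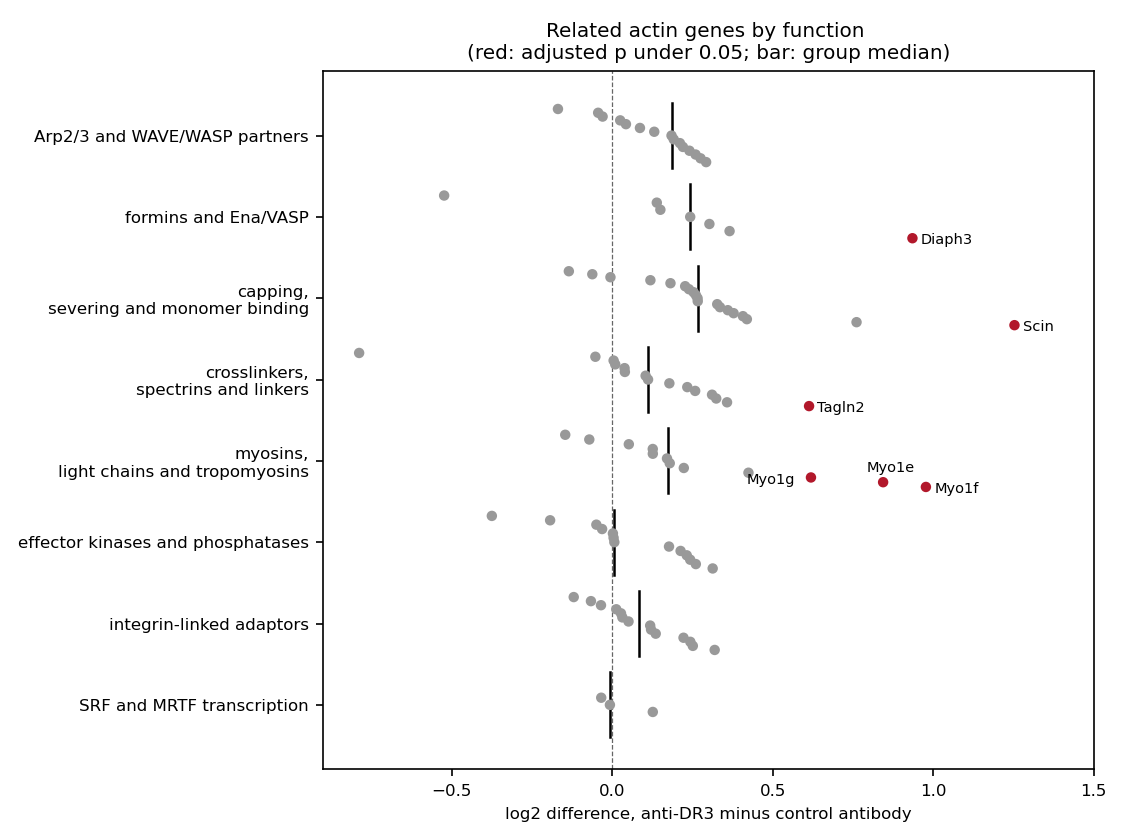
Each point is a related gene tested, in 8 of the 9 roles listed, placed by its log2 difference (anti-DR3 minus control antibody, x axis) within its role (rows); red points passed an adjusted p of 0.05 in limma and are named, and the bar is the median of the role. The 6 red points lie at 0.61 or above, and the medians of all roles drawn but SRF and MRTF transcription lie between 0 and 0.27.

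Markers of other cells were read on the same arrays, since myeloid and stromal cells are rich in many of these gene products. Of 6 monocyte and macrophage markers 3 were tested and 1 rose, Csf1r, by 0.42 (adjusted p = 0.0387, limma), and the intensities of all 6 summed to 259.3 and 294.9 after anti-DR3 and to 223.7 and 249.2 after control antibody. The list did not move as 1. Itgam and Lyz2 differed by 0.47 and 0.43 and did not pass, and Lyz2 overlapped between groups. Itgam passed the filter through the anti-DR3 arrays alone. Of the dim markers, Adgre1 and Fcgr1 differed by -0.34 and -0.32, and Cd14 by 0.22. Cd8b1 rose by 0.49 (adjusted p = 0.0416, limma), the other CD8 marker was dim, and both summed to 223.5 and 239.6 against 172.6 and 168.3. Fibroblast, smooth muscle and endothelial markers, listed with the epithelial gene Epcam, had 0 calls and 0 under an unadjusted p of 0.05 among 8 tested in limma, with sums of 1015 and 1017 against 1049.8 and 1026 over 10 measured. Most of each sum was Pecam1, at log2 intensities of 9.12 and 9.14 with anti-DR3, against 9.24 and 9.11 with control antibody. No marker was called among B cell, plasma cell, natural killer cell, platelet and erythroid, dendritic cell or neutrophil and mast cell lists in limma, and 0 of those tested lay under an unadjusted p of 0.05. All 4 dendritic cell and all 4 neutrophil and mast cell markers were dim. The part of myeloid and CD8 cells in the values above was not tested.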

How the data were processed

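The authors deposited linear intensities for the probe sets of an Affymetrix array, made with robust multi-array average (RMA: background correction, normalization between arrays and summary of each probe set), per the submitters' processing notes. For the RMA software and the build, names and versions were not given in the sources used here. Because RMA normalizes arrays to each other, a shift shared by all genes may not show. The deposited values were not on exactly 1 distribution. On the log2 scale, medians of all probe sets were 5.33 and 5.34 with anti-DR3 and 5.38 and 5.39 with control antibody.

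Log2 of the deposited intensities was taken here. Of 41345 probe sets 23521 had 1 symbol, and the brightest per gene was kept. Genes above the array's median on at least 2 of 4 arrays were tested (12114 of 22180). The test was that of limma (version 3.58.1, under R 4.3.3), with lmFit and eBayes, two-sided, adjusted by Benjamini-Hochberg at a threshold of 0.05, and the code was tested on simulated data. Python 3.11.15, pandas 2.3.3 and matplotlib 3.10.9 served for promoter windows (RefSeq, GRCm38.p6) and figures.

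The members and lists were chosen with earlier results of these data known. Members past the threshold, the most and least changed of each role and those in pairs were to have values in every array. Of the related genes, up to 10 with the largest called differences were named, with Srf, Mrtfa and Mrtfb. Alternatives covered the arrays used, replicate block, filter, probe sets, scaling, variance model and threshold. A summary over 1 role of the members and 1 of the related genes is not reported here.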

Additional observations from a re-analysis of the deposited data

How the results depend on the processing

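Precision is limited by the number of arrays, 2 per group. Each of 42 members was recomputed under 16 alternatives. Of these values 572 stayed as called or not called in the same direction, 52 were no longer called, 23 became called and 25 changed sign, and the cause was not tested except where named. When any single array was removed, its partner was taken to be as variable as the complete group, and limma called 0 to 2 members higher and 0 lower, 0 to 6 related genes higher and 0 to 1 lower, and 0 to 245 of all genes higher and 0 to 67 lower. With no filter, which tests more genes, it called 0 members higher and 0 lower, 0 related genes higher, and 14 of all genes higher and 0 lower. With the ordinary linear model, which does not share the spread among genes, these were 0, 0, 0, 0 and 0, with 2087 genes under an unadjusted p of 0.05. With the trended robust prior they were 16, 2, 31, 1082 and 362, with an adjusted p under 0.10 they were 13, 2, 23, 1171 and 518, and with a 2-fold minimum 0, 0, 1, 69 and 3. Related genes called lower were 2 with the trended robust prior and 3 with an adjusted p under 0.10. The stricter filter called 2 members lower, 14 related genes higher and 1 lower. With centred arrays 2 members and 1 related gene were called lower, and 348 of all genes higher. Same-numbered arrays deviated together at a correlation of 0.051 and the labels tie no numbers, so the numbers were not taken to pair arrays. With the replicate block limma called 6 members (Coro1b was lost) and 563 genes, 497 of them shared with the 722, and 2 related genes lower. Of 60 pair values recomputed 2 moved beyond the spread, Actg1 against Actb to 0.249 with the mean of all probe sets and Rac1 against Rac2 to -0.232 with quantile normalization. Differences of 9 members turned when an array was removed, most of them near 0. The lowest and highest values with an array left out were -0.0704 and 0.0880 for Tmsb10, -0.0320 and 0.0494 for Rhoh, -0.0473 and 0.0559 for Actn4, -0.0474 and 0.0550 for Myh9, -0.0478 and 0.0420 for Tln1, -0.193 and 0.123 for Ezr, -0.179 and 0.627 for Tpm3, -0.139 and 0.0853 for Diaph1, and -0.0667 and 0.213 for Ahnak. Without turning, they were 0.0559 and 0.241 for Rhoa, 0.274 and 0.644 for Vcl, 0.101 and 0.220 for Cfl1, 0.0497 and 0.180 for Was, 0.0137 and 0.136 for Pfn1, 0.0460 and 0.0994 for Wasf2, 0.0115 and 0.0771 for Rac1, and -0.126 and -0.00317 for Rdx. With centred arrays Tmsb10 turned to -0.0518, Rhoh to -0.0519, Actn4 to -0.0563, Myh9 to -0.0568 and Rac1 to -0.0163. With quantile normalization Tmsb10 turned to -0.0170, Rhoh to -0.0221, Actn4 to -0.0341 and Myh9 to -0.0040.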
